A study of Rattus norvegicus with 28 samples.

Results

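The 9 genes described here encode sensors of microbial molecules other than the LPS receptor TLR4. They are the Toll-like receptor genes Tlr1, Tlr2, Tlr3, Tlr5, Tlr6, Tlr7 and Tlr9 and the NOD receptor genes Nod1 and Nod2, found by exact symbol in all 28 libraries among 15009 symbols that the microglial and astrocyte tables share. The study measured mRNA in primary glia from the cortex of postnatal day 1 Wistar rats after 10 days in flasks. Microglia, shaken off and enriched on CD11b/c beads, were stimulated 1 day after isolation and astrocytes 3 days after it, in medium with 10% FCS. Each cell type had 4 groups: recombinant HERV-W ENV (1 µg/ml), a human endogenous retroviral envelope protein; its buffer; LPS (100 ng/ml), a Gram-negative wall component; and its vehicle H2O. Microglial groups had 3 libraries and astrocyte groups 4. No label gives the length of stimulation or ties a library to an animal, and p-values cover only the scatter of these libraries, some of which may be technical.

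TLR1, TLR2 and TLR6 sit on the cell surface, where TLR2 pairs with TLR1 or TLR6 to bind bacterial lipoproteins, and TLR5 binds flagellin, the protein of bacterial flagella. TLR3, TLR7 and TLR9 signal from endosomes, which they reach with the chaperone UNC93B1, and bind double-stranded RNA, single-stranded RNA and DNA with unmethylated CpG. TLR3 signals through the adaptor TRIF and the others through MYD88. NOD1 and NOD2 are cytosolic, sense fragments of bacterial peptidoglycan and recruit the kinase RIPK2. Microglia, the resident macrophages of the brain, are known to carry many of these receptors.

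Microglial libraries held 26513999 to 42724111 counts and astrocyte libraries 23742228 to 35326938, so that 3 counts, the limit a count of 0 allows, came to 0.0702 to 0.126 CPM (counts per 1e+06 counts of a library), which covers counting error only. Summed markers matched the labels: 5507 to 10734 CPM of 12 microglial markers in microglia and 2553 to 10484 CPM of 9 astrocyte markers in astrocytes. Astrocyte libraries also held 149 to 804 CPM of the microglial markers, with none of the 12 at 0 in any library, and 965 to 6499 CPM of 8 fibroblast and mural cell markers. Some libraries stood apart. In microglia, replicate 3 of LPS differed from LPS replicates 1 and 2 by a chi-square per gene of 381 and 281, against 136 between those 2, and replicate 3 was likewise the most distant in H2O and in buffer. In astrocytes, LPS replicates 1 and 2 stood apart from 3 and 4. Levels below are CPM over the plain library total. Each log2 change, followed by its standard error, comes from edgeR's quasi-likelihood test after TMM scaling, and a gene is called at a Benjamini-Hochberg adjusted p under 0.05 over all genes tested. This fit leaves out the replicate number, by which the libraries appear to be paired. Receptor calls that changed with the number as a block (the replicate block) are given beside it. Plain library totals moved the median log2 change of all genes in microglia to -0.23 with ENV and -0.33 with LPS, against -0.033 and -0.024 after TMM, so log2 changes there are relative to that median and exceed the ratio of CPM means.

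Promoter sequence is shown for members whose calls without that block, given further on, contrasted. These are Tlr6, called in microglia with both stimuli, Tlr3, called with ENV in both cell types, and Tlr9, called with neither. Tlr2 is shown for its NF-kB matches. RefSeq (GRCr8) gave 250 bases before a listed start for 8 of the 9 members, all but Nod2. For Tlr1, Tlr2, Tlr5 and Nod1 these bases lie wholly inside the annotated gene, and for Tlr7 partly. The Tlr1 window began at 43747571 in a gene annotated from 43737761, and the Tlr5 window at 97182910 in one from 97166430. Capitals mark matches on either strand of the NF-kB consensus, the ISRE core GAAANNGAA, the gamma-activated site TTCNNNGAA, the AP-1 motif TGANTCA and the ETS purine box GAGGAA. The windows are chr14:43715559-43715808 (+) for Tlr6, chr16:53554666-53554915 (+) for Tlr3 and chr8:115743157-115743406 (+) for Tlr9, and the 30 bases of Tlr2 are chr2:171504743-171504772 (-), all written 5′ to 3′ along the gene.
Tlr6: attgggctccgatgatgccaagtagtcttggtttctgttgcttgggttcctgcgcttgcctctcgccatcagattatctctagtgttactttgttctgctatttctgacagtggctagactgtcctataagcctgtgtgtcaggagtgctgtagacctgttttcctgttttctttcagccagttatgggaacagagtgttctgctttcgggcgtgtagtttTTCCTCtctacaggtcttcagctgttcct
Tlr3: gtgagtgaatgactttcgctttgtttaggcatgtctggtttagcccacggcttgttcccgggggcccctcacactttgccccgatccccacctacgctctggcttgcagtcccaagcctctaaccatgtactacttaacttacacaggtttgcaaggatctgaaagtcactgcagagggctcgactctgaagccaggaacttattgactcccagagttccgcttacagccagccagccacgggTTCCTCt
Tlr9: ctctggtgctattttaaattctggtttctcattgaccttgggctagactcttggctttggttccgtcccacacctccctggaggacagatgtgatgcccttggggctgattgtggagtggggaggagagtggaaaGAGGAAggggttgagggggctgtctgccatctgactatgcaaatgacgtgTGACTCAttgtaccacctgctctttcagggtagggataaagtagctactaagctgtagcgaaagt
Tlr2: aggcccttgGGGGAATTCCCatacggagcc
Tlr2 held a pair of overlapping matches of the NF-kB consensus, 206 to 196 bases before its listed start. They lie inside the annotated gene and not upstream of it. Of 33465 rat promoters of that length, 3.541% held such a match. Tlr9 held an AP-1 match (6.341% of promoters) and an ETS purine box, which also occurred once each in Tlr6, Tlr3 and Tlr7 and in 23.34% of promoters. None of the 8 windows held the ISRE core (8.119%) or the gamma-activated site (7.668%). Those of Tlr1, Tlr5 and Nod1 held none of the 5 motifs, but they lie inside the genes and do not describe the bases upstream. A match describes letters in a window and not binding.

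Without stimulation, transcripts of all 9 receptors were higher in microglia than in astrocytes. The median log2 difference of the 9 was 3.85 in buffer and 4.82 in H2O, against -0.011 and -0.11 over all genes tested. In either direction, 70.0% of all genes were called in buffer and 70.9% in H2O (64.0% and 69.4% by DESeq2). Those called higher in microglia were 4358 of 12984 genes in buffer and 4286 of 12916 in H2O. Tlr2 differed by 5.13 ± 0.47 (adjusted p = 3.72e-05) in buffer and Tlr7 by 5.03 ± 0.65 (adjusted p = 0.000234), whereas Nod1 (1.47 ± 0.13, adjusted p = 3.39e-05) and Tlr3 (1.55 ± 0.24, adjusted p = 0.000561) differed least. In H2O the differences ran from 1.72 ± 0.39 for Tlr5 to 6.13 ± 0.53 for Tlr7. All 9 were called for both vehicles in every alternative run. Cell type, isolation, time in culture, the separate counting of each cell type and any batch cannot be told apart in these differences.

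Seen as a share of the microglial level, the receptors divided. The astrocyte mean with buffer was 3.73% of the microglial mean for Tlr2, 4.00% for Tlr7, 4.46% for Nod2, 6.64% for Tlr1 and 8.91% for Tlr9, and 6.01% for the summed microglial markers. It was 16.3% for Tlr6, 25.6% for Tlr5, 44.4% for Tlr3 and 46.8% for Nod1. Per 1000 CPM of microglial markers, Nod1 had 3.51 to 5.41 CPM in microglia with buffer, against 20.3 to 87.4 CPM in astrocytes with buffer, and Tlr3 had 2.19 to 3.60 against 16.2 to 39.7 CPM. Tlr5 and Tlr6 were also higher on this scale in every vehicle astrocyte library than in any vehicle microglial library. Tlr1 (7.01 to 7.76 in microglia, 5.07 to 9.90 in astrocytes with buffer), Tlr9 and Nod2 overlapped between the cell types in vehicle libraries, and Tlr2 and Tlr7 were lower in every vehicle astrocyte library than in any vehicle microglial library. In treated libraries Tlr2 lay the other way, with 51.5 to 64.9 CPM per 1000 marker CPM in microglia with ENV, against 183 to 204 in astrocytes with ENV, and 53.8 to 116 in microglia with LPS, against 140.4 to 197 in astrocytes with LPS. Nod2 had 4.60 to 5.67 in microglia with ENV, against 22.4 to 40.6 in astrocytes with ENV, and 7.86 to 23.8 in microglia with LPS, against 25.7 to 33.8 in astrocytes with LPS. The marker sum that divides these values changed with treatment. In astrocytes it averaged 322 CPM with ENV and 571 with buffer, and 261 with LPS and 485 with H2O. In microglia it averaged 9382 CPM with ENV and 9490 with buffer, and 7753 with LPS and 9667 with H2O. A lower sum raises the ratio even at an unchanged receptor CPM. The highest LPS ratios in microglia came from replicate 3, with the lowest sum, 5507 CPM. In bulk libraries fewer cells of a type and less RNA per cell cannot be told apart, and the part of microglia in the astrocyte signal was not tested.

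**Figure D1:**
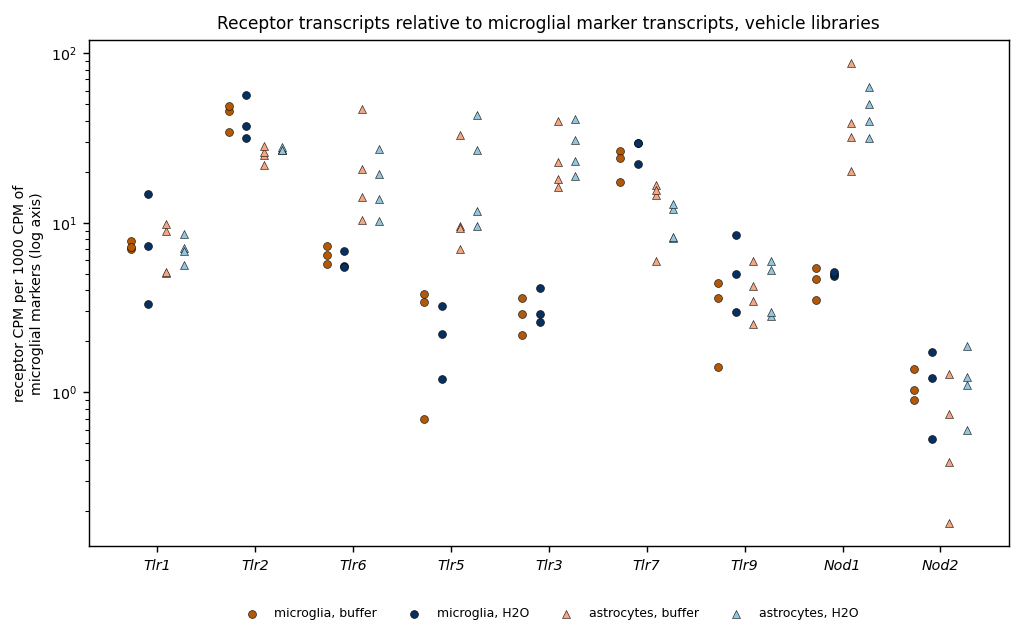
Receptor CPM per 1000 CPM of 12 microglial marker transcripts (log axis) in the vehicle libraries of microglia and astrocytes, with circles for microglia and triangles for astrocytes, 1 per library. Tlr6, Tlr5, Tlr3 and Nod1 lie higher in astrocytes, Tlr2 and Tlr7 lower, and Tlr1, Tlr9 and Nod2 overlap.

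With ENV, most receptor transcripts of microglia changed. Against buffer, 7 of the 9 were called higher (Tlr1, Tlr2, Tlr3, Tlr6, Tlr7, Nod1 and Nod2) and Tlr5 lower, where 16.2% of 12844 genes were called higher and 14.7% lower. LPS against H2O gave 5 higher (Tlr1, Tlr6, Tlr7, Nod1 and Nod2) and Tlr5 lower, where 16.0% of 12229 genes were called higher and 13.8% lower. In astrocytes, ENV gave 4 higher (Tlr2, Tlr3, Nod1 and Nod2) and Tlr5 lower, where 9.52% of 14941 genes were higher and 8.35% lower. LPS gave Nod2 higher and Tlr5 lower there, where 2.64% of 14710 genes were higher and 2.69% lower. Counted in either direction, the replicate number as a block gave 7 and 6 members in microglia with ENV and LPS (39.2% and 30.3% of all genes) and 7 and 6 in astrocytes (29.1% and 17.7%). DESeq2 gave 7 in microglia with LPS (34.5%) and 5 and 3 in astrocytes (22.5% and 11.9%). Astrocyte replicates 1 and 2 alone gave 0 with ENV and 3 with LPS (2.48% and 20.1%), and replicates 3 and 4 alone 2 and 4 (6.23% and 5.96%). The median log2 change of the 9, all of which passed the filter on low counts, was 0.80 and 0.96 in microglia with ENV and LPS and 0.44 and 0.26 in astrocytes. Over all genes it lay between -0.033 and 0.028.

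**Figure D2:**
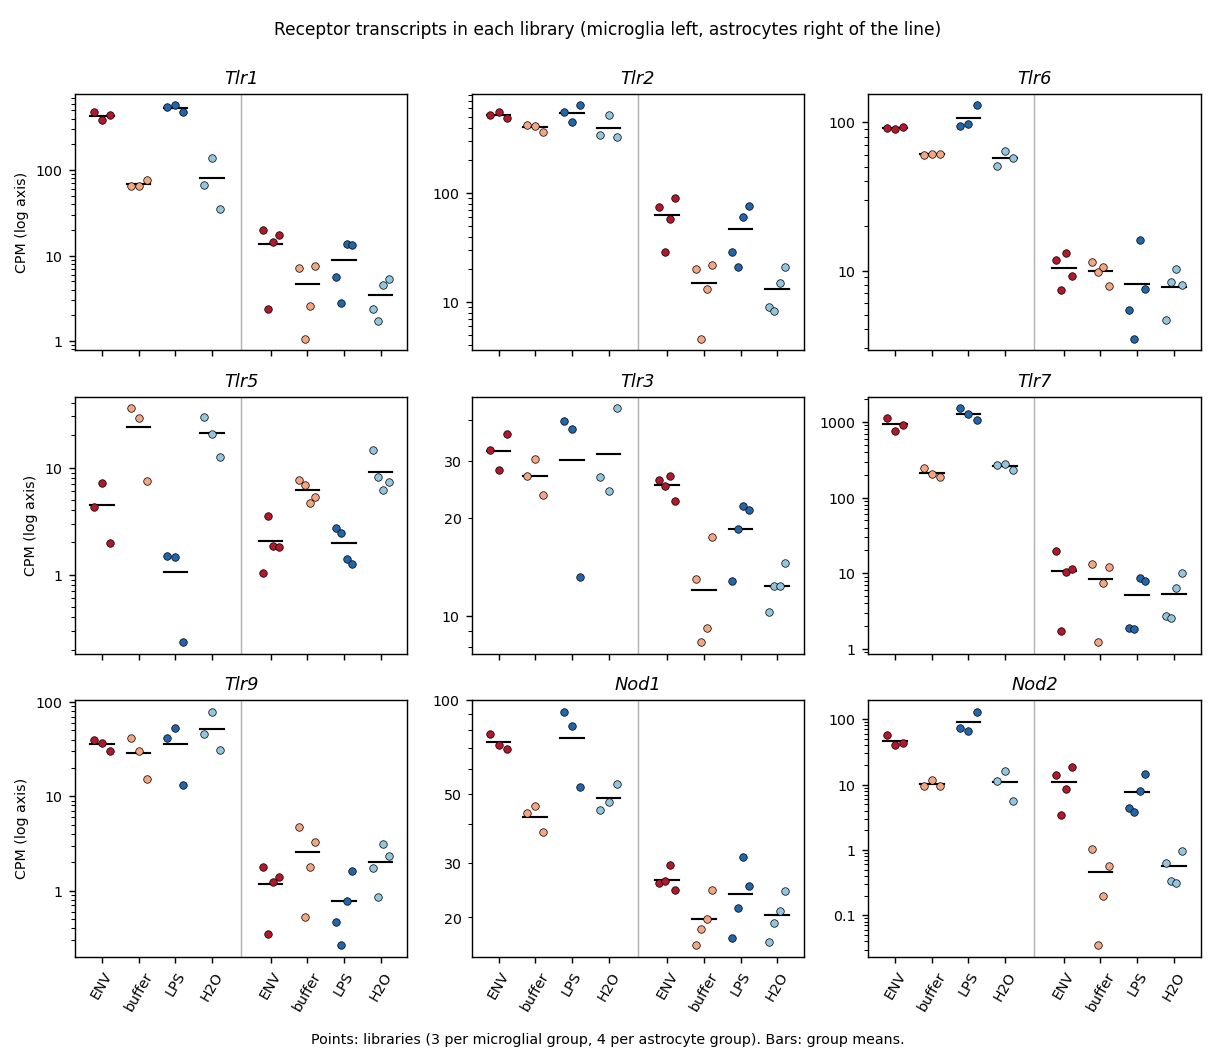
CPM of each receptor transcript (log axis) in every library of the 8 groups, with points for libraries and bars for group means. Tlr1, Tlr7 and Nod2 of treated microglia lie above every library of their vehicle, and Tlr5 of treated cells lies below its vehicle in both cell types.

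**Figure D3:**
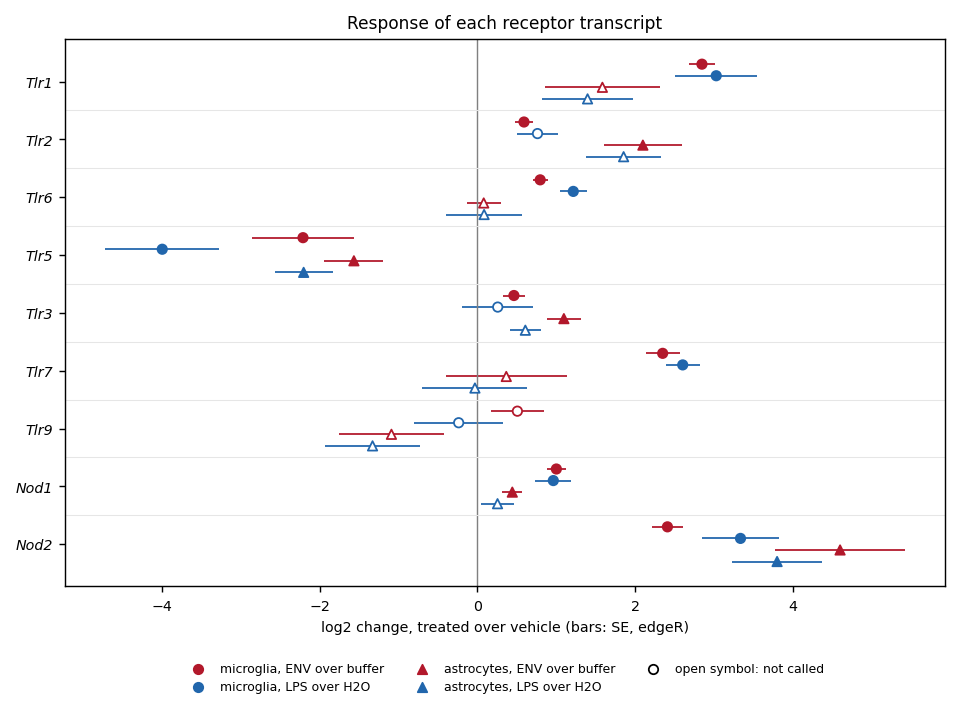
Log2 change of each receptor transcript, treated over vehicle, with its standard error from edgeR, for ENV (red) and LPS (blue) in microglia (circles) and astrocytes (triangles), open where not called. Nod2 is positive and Tlr5 negative in all 4 comparisons, while Tlr1 and Tlr7 were called in microglia.

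The levels were ordered by group mean over the 8 groups. LPS-treated microglia came first and ENV-treated microglia second for Tlr1, Tlr6 and Nod2, with no overlap between them in CPM, and the same order held for Tlr2, Tlr7 and Nod1, where they overlapped. For these 6 genes the buffer and H2O groups of microglia overlapped. The gap for Tlr1 was narrow, from 474 CPM in the highest ENV library to 477 CPM in the lowest LPS library. This order sets libraries with different vehicles side by side, and their depth differed. Microglial libraries with ENV or buffer held 26513999 to 30640591 counts, and those with LPS or H2O 38080379 to 42724111. The test of ENV minus LPS responses, given further on, called none of the receptors. Astrocyte groups came below all microglia without overlap for Tlr1, Tlr2, Tlr6, Tlr7, Tlr9 and Nod1, while for Nod2 the ENV- and LPS-treated astrocytes each overlapped both vehicle groups of microglia. The share of all genes that separate in this way was not counted, and 70.0% with buffer and 70.9% with H2O were called between the cell types in either direction. For Tlr3 the 4 microglial groups overlapped one another, and ENV-treated astrocytes overlapped microglia with buffer, LPS and H2O, and LPS-treated microglia overlapped all 4 astrocyte groups. For Tlr9 the 4 microglial groups overlapped one another, and for Tlr5 vehicle microglia had the highest means.

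Among the lipoprotein receptors, Tlr1 rose most in microglia. It had 474, 385 and 440.4 CPM with ENV, against 65.3, 65.4 and 77.5 CPM with buffer. With LPS it had 544, 572 and 477 CPM, against 67.0, 139 and 34.8 CPM with H2O. Every treated library was above every vehicle library, and H2O was the most scattered group. The change was 2.84 ± 0.16 (adjusted p = 0.000151) for ENV and 3.03 ± 0.52 (adjusted p = 0.00995) for LPS, and the LPS call was lost without H2O replicate 1 (adjusted p = 0.0553). In astrocytes Tlr1 averaged 13.6 ± 7.78 CPM with ENV and 4.61 ± 3.28 CPM with buffer, and 8.90 ± 5.54 CPM with LPS and 3.48 ± 1.70 CPM with H2O (SD, n = 4 each). Groups overlapped, with replicate 2 the lowest library in each. Neither change was called (1.58 ± 0.73, adjusted p = 0.172 for ENV and 1.40 ± 0.57, adjusted p = 0.211 for LPS), whereas with the replicate block both were (1.61, adjusted p = 0.00530 and 1.27, adjusted p = 0.0117).

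Tlr2, the partner of TLR1 and TLR6 with the NF-kB matches printed above, had 528, 559 and 489 CPM in microglia with ENV, against 426, 410.3 and 367 CPM with buffer. LPS-treated libraries had 556, 450.3 and 639 CPM, against 343, 527 and 331 CPM with H2O. The ENV and buffer libraries were separate (0.59 ± 0.12, adjusted p = 0.0100), while H2O replicate 2 lay inside the LPS range (0.76 ± 0.26, adjusted p = 0.0664, and 1.02, adjusted p = 0.0490 without it). In astrocytes Tlr2 had 75.3, 28.6, 57.6 and 89.4 CPM with ENV, against 20.3, 4.60, 13.3 and 21.7 CPM with buffer. The LPS libraries had 29.1, 21.0, 59.9 and 75.9 CPM, against 9.08, 8.23, 14.8 and 20.8 CPM with H2O. All treated astrocyte libraries exceeded all libraries of their vehicle. The ENV change was 2.10 ± 0.49 (adjusted p = 0.0220), a call that was lost without ENV replicate 1 or buffer replicate 3 (adjusted p = 0.0562 to 0.0704), and the LPS change was 1.85 ± 0.47 (adjusted p = 0.0646), or 1.75 (adjusted p = 0.00236) with the replicate block and 2.08 (adjusted p = 0.0395) without LPS replicate 2.

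Tlr6, a neighbour of Tlr1 on chromosome 14, had 91.9, 90.6 and 93.2 CPM in microglia with ENV, against 60.2, 61.4 and 61.0 CPM with buffer. After LPS it had 94.9, 97.3 and 130.0 CPM, against 51.0, 63.6 and 57.2 CPM with H2O. Treated and vehicle libraries were separate for both stimuli, and it rose by 0.80 ± 0.10 with ENV (adjusted p = 0.00154) and 1.21 ± 0.17 with LPS (adjusted p = 0.00565). In astrocytes it averaged 10.4 ± 2.62 CPM with ENV and 9.92 ± 1.50 CPM with buffer, and 8.09 ± 5.52 CPM with LPS and 7.79 ± 2.34 CPM with H2O (SD, n = 4 each). These groups overlapped (0.080 ± 0.22, adjusted p = 0.842 and 0.085 ± 0.48, adjusted p = 0.946). Reads that Tlr1 and Tlr6, which are close paralogs, may share could not be separated in these counts.

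The flagellin receptor gene Tlr5 fell in all 4 comparisons. It had 4.26, 7.21 and 1.98 CPM in microglia with ENV, against 35.6, 28.8 and 7.51 CPM with buffer. In the LPS set it had 1.49, 1.46 and 0.236 CPM (9 to 59 counts), against 29.6, 20.6 and 12.5 CPM with H2O. ENV replicate 2 lay just under buffer replicate 3, whereas LPS and H2O were far apart. The ENV change was -2.21 ± 0.65 (adjusted p = 0.0398), and the call was lost without ENV replicate 1, 2 or 3 or buffer replicate 1 or 2 (adjusted p = 0.0547 to 0.118). The LPS change was -3.99 ± 0.72 (adjusted p = 0.0116), and the call was lost without H2O replicate 1 (adjusted p = 0.0528).

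In astrocytes Tlr5 had 1.03, 3.55, 1.85 and 1.81 CPM with ENV, against 7.68, 6.87, 4.69 and 5.35 CPM with buffer. With LPS it had 2.74, 2.43, 1.41 and 1.26 CPM, against 14.5, 8.19, 6.24 and 7.37 CPM with H2O. All treated libraries were below all libraries of their vehicle. The ENV change was -1.56 ± 0.37 (adjusted p = 0.0238), and the call was lost without ENV replicate 3 or 4 or buffer replicate 1 or 2 (adjusted p = 0.0549 to 0.0649), while the LPS change of -2.20 ± 0.37 (adjusted p = 0.0165) held without each of the 8 libraries in turn. Across the 8 groups Tlr5 was the member whose lowest mean lay in microglia, at 1.06 CPM with LPS, within the range of treated astrocytes.

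Of the nucleic acid receptors, Tlr7 rose strongly in microglia. It had 1143, 766 and 903 CPM with ENV, against 247, 204 and 188 CPM with buffer. LPS-treated libraries had 1511, 1267 and 1049 CPM, against 272, 277 and 232 CPM with H2O. Treated libraries stood well clear of vehicle libraries, with changes of 2.35 ± 0.21 (adjusted p = 0.000549) for ENV and 2.60 ± 0.22 (adjusted p = 0.00139) for LPS, called in every alternative run. In astrocytes it averaged 10.7 ± 7.26 CPM with ENV and 8.51 ± 5.50 CPM with buffer, and 5.08 ± 3.73 CPM with LPS and 5.38 ± 3.51 CPM with H2O (SD, n = 4 each). Libraries within a group were several fold apart and the groups overlapped (0.37 ± 0.77, adjusted p = 0.791 and -0.031 ± 0.67, adjusted p = 0.989).

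Tlr3, the double-stranded RNA receptor gene, had 26.2, 25.2, 26.9 and 22.7 CPM in astrocytes with ENV, against 13.0, 8.32, 9.19 and 17.4 CPM with buffer. The LPS libraries had 12.8, 18.5, 21.8 and 21.1 CPM, against 10.3, 12.4, 12.3 and 14.6 CPM with H2O. The ENV libraries were close together and all above buffer (1.10 ± 0.21, adjusted p = 0.0103), and LPS replicate 1 lay within the H2O range (0.61 ± 0.20, adjusted p = 0.130, or 0.58, adjusted p = 0.0275 with the replicate block). In microglia Tlr3 had 32.4, 28.1 and 36.2 CPM with ENV, against 27.04, 30.4 and 23.5 CPM with buffer. After LPS it had 39.8, 37.6 and 13.2 CPM, against 26.7, 24.2 and 43.6 CPM with H2O. Both pairs of groups overlapped, and replicate 3 was the lowest LPS library and the highest H2O library. The ENV call of 0.46 ± 0.14 (adjusted p = 0.0456) was lost without ENV replicate 1 or 3 or buffer replicate 1, 2 or 3 (adjusted p = 0.0593 to 0.146), with the replicate block (0.46, adjusted p = 0.0597) and on plain library totals (0.26, adjusted p = 0.208). The LPS change was 0.26 ± 0.45 (adjusted p = 0.686) with all libraries and 0.89 (adjusted p = 0.00803) with both replicates 3 left out.

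Tlr9, the CpG DNA receptor gene, was called with neither stimulus in either cell type without the replicate block, and in astrocytes with both stimuli with it. In microglia it had 39.8, 36.7 and 30.0 CPM with ENV, against 41.1, 30.4 and 15.2 CPM with buffer. In the LPS set it had 41.3, 53.2 and 13.1 CPM, against 45.6, 79.2 and 31.1 CPM with H2O. Replicate 3 was the lowest library of each of these groups, and the changes were 0.51 ± 0.33 (adjusted p = 0.286) and -0.24 ± 0.56 (adjusted p = 0.773). In astrocytes it had 1.77, 0.346, 1.24 and 1.40 CPM with ENV (11 to 50 counts), against 4.75, 0.531, 1.76 and 3.26 CPM with buffer (15 to 138 counts). With LPS it had 0.463, 0.266, 0.770 and 1.63 CPM, against 1.75, 0.856, 3.14 and 2.32 CPM with H2O. Each treated library was below the vehicle library of its number, though the groups overlapped. The changes were -1.09 ± 0.66 (adjusted p = 0.297) and -1.33 ± 0.60 (adjusted p = 0.259), or -0.97 (adjusted p = 0.0313) and -1.46 (adjusted p = 0.0440) with the replicate block.

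Nod2, the sensor of muramyl dipeptide, rose in all 4 comparisons. Microglia had 58.1, 39.6 and 43.3 CPM with ENV, against 9.58, 11.6 and 9.63 CPM with buffer. With LPS they had 73.7, 65.9 and 131 CPM, against 11.2, 16.3 and 5.55 CPM with H2O. Treated libraries stood clear of vehicle libraries (2.41 ± 0.20, adjusted p = 0.000382 for ENV and 3.33 ± 0.49, adjusted p = 0.00659 for LPS), and LPS replicate 3 was the highest. Astrocytes had 14.2, 3.40, 8.48 and 18.4 CPM with ENV (108 to 538 counts), against 1.03, 0.0354, 0.196 and 0.566 CPM with buffer (1 to 30 counts). With LPS they had 4.34, 3.84, 7.83 and 14.4 CPM (101 to 353 counts), against 0.631, 0.335, 0.318 and 0.952 CPM with H2O (8 to 23 counts). Every treated library exceeded every library of its vehicle, and buffer replicate 2 was under the limit of 3 counts. The changes were 4.59 ± 0.82 (adjusted p = 0.00776) for ENV and 3.80 ± 0.57 (adjusted p = 0.0116) for LPS. The ENV call held without each of the 8 libraries in turn but was lost with replicates 1 and 2 alone (3.98, adjusted p = 0.182), where 2.48% of all genes were called.

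Nod1, which senses peptidoglycan fragments mainly of Gram-negative bacteria, had 77.9, 71.6 and 69.8 CPM in microglia with ENV, against 43.2, 45.6 and 37.7 CPM with buffer. LPS-treated libraries had 91.9, 82.7 and 52.4 CPM, against 44.3, 46.9 and 53.7 CPM with H2O. ENV and buffer were separate (1.00 ± 0.12, adjusted p = 0.00143), and LPS replicate 3 lay inside the H2O range. The LPS call of 0.96 ± 0.23 (adjusted p = 0.0250) was lost without LPS replicate 1 or 2 or H2O replicate 1, 2 or 3 (adjusted p = 0.0607 to 0.0998) and on plain library totals (0.65, adjusted p = 0.0652). In astrocytes Nod1 had 25.8, 26.2, 29.5 and 24.4 CPM with ENV, against 16.3, 18.3, 19.8 and 24.5 CPM with buffer. Buffer replicate 4 lay at the level of the lowest ENV library. The call of 0.44 ± 0.13 (adjusted p = 0.0460) was lost without ENV replicate 1, 2, 3 or 4 or buffer replicate 1, 2 or 3 (adjusted p = 0.0549 to 0.109), on plain library totals (0.42, adjusted p = 0.0694), with DESeq2 size factors (adjusted p = 0.0561) and with no filter (adjusted p = 0.0546). With LPS it averaged 23.8 ± 5.92 CPM, against 20.3 ± 3.23 CPM with H2O (SD, n = 4 each; 0.26 ± 0.21, adjusted p = 0.548).

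Markers of other cells moved in the same libraries. In astrocytes the summed microglial markers were lower in each treated library than in the vehicle library of its number, at 151 to 453 CPM with ENV and 209 to 804 CPM with buffer, and at 149 to 426 CPM with LPS and 305 to 774 CPM with H2O. Tlr1, Tlr2, Tlr3 and Nod2 were higher, and Tlr5 and Tlr9 lower, in each of those treated libraries than in the vehicle library of its number. Tlr6, Tlr7 and Nod1 went both ways. Astrocyte, neuronal, and fibroblast and mural cell markers were also lower in each treated astrocyte library than in the vehicle library of its number. Astrocyte markers averaged 6078 ± 1450.2 CPM with ENV and 9240.2 ± 849 CPM with buffer, and 4999.5 ± 2743 CPM with LPS and 7725 ± 2239 CPM with H2O (SD, n = 4 each, as for the lists that follow in astrocytes). Neuronal markers averaged 341 ± 74.9 CPM with ENV and 713 ± 137 CPM with buffer, and 327 ± 73.3 CPM with LPS and 637 ± 216 CPM with H2O. Fibroblast and mural cell markers averaged 1421 ± 427 CPM with ENV and 4503 ± 2173 CPM with buffer, and 1307 ± 368 CPM with LPS and 3069 ± 1808 CPM with H2O. In microglia the microglial markers averaged 9382 ± 821 CPM with ENV and 9490.5 ± 1164 CPM with buffer, and 7753 ± 2010.3 CPM with LPS and 9667 ± 716 CPM with H2O (SD, n = 3 each). Astrocyte markers there averaged 158 ± 59.2 CPM with ENV and 247 ± 22.5 CPM with buffer, and 28.6 ± 9.98 CPM with LPS and 139 ± 123 CPM with H2O. Oligodendrocyte lineage markers averaged 136 ± 47.5 CPM with ENV and 317 ± 16.7 CPM with buffer, and 15.2 ± 17.3 CPM with LPS and 70.8 ± 93.3 CPM with H2O. Endothelial markers averaged 138 ± 47.5 CPM with ENV and 46.2 ± 6.82 CPM with buffer, and 154 ± 62.1 CPM with LPS and 69.3 ± 24.5 CPM with H2O. The part of these cells in the receptor changes was not tested.

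Whether the stimuli differed in effect was tested as an interaction. By edgeR, 0 of the 9 receptors and 0 of 13270 genes (0%) were called in microglia, and 0 of the 9 and 0 of 15496 genes (0%) in astrocytes. At an unadjusted p under 0.05 there were 937 genes (7.06%) in microglia and 76 in astrocytes, with 0 receptors in either, and DESeq2 called 64 (0.473%) and 0 genes, again with 0 receptors. Within-set replicate blocks gave 0 receptors, with 1 gene (0.00754%) in microglia and 0 in astrocytes. The 76 genes are 0.490% of those tested in astrocytes, fewer than evenly spread p-values would give under 0.05. Buffer and H2O libraries of the same number deviated together in astrocytes (r of 0.292 to 0.796 over genes), which that fit does not use, while in microglia r was -0.156 to 0.381. With the number as a block over both sets, an alternative chosen after seeing the data, edgeR called 0 receptors in either cell type, and 1.56% of astrocyte genes had an unadjusted p under 0.05. In microglia the response to ENV minus that to LPS was 1.83 ± 1.01 (adjusted p = 0.732) for Tlr5, -0.89 ± 0.55 (adjusted p = 0.755) for Nod2 and -0.39 ± 0.20 (adjusted p = 0.718) for Tlr6. In astrocytes it was largest for Nod2 (0.80 ± 1.00) and Tlr5 (0.62 ± 0.53). With errors of this size the test does not show that the stimuli acted alike.

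The response in microglia minus that in astrocytes was tested in the same way. For ENV, Nod1 was called (0.55 ± 0.17, adjusted p = 0.0476), larger in microglia, where 14.9% of 13378 genes were called. That call was lost on plain library totals (0.38, adjusted p = 0.169), with no filter, and without any 1 of 11 of the 14 libraries. Differences not called were -2.18 ± 0.85 (adjusted p = 0.103) for Nod2, -1.51 ± 0.59 (adjusted p = 0.107) for Tlr2, 0.71 ± 0.26 (adjusted p = 0.0865) for Tlr6 and 1.98 ± 0.95 (adjusted p = 0.187) for Tlr7. With 1 astrocyte library left out, Nod2 was called without buffer replicate 1 (-2.91, adjusted p = 0.0470) or ENV replicate 2 (-2.48, adjusted p = 0.0369), Tlr2 without ENV replicate 2 (-1.75, adjusted p = 0.0441), Tlr6 without ENV replicate 3 (0.86, adjusted p = 0.0334) or buffer replicate 4 (0.82, adjusted p = 0.0401), and Tlr3 without buffer replicate 4 (-0.84, adjusted p = 0.0288, against -0.64 ± 0.28, adjusted p = 0.146 with it). At an unadjusted p under 0.05 there were 29.6% of all genes, and DESeq2 called 2 members and 21.2% of genes. With the replicate block, 7 members were called and 24.8% of all genes. The members were Tlr1 (1.23, adjusted p = 0.0207), Tlr2 (-1.59, adjusted p = 0.000403), Tlr6 (0.73, adjusted p = 0.0309), Tlr7 (1.96, adjusted p = 0.000199), Tlr9 (1.59, adjusted p = 0.00674), Nod1 (0.54, adjusted p = 0.0412) and Nod2 (-2.34, adjusted p = 0.00613). For LPS, edgeR called 0 members and 12.5% of 13284 genes, with 3 members and 27.5% of genes at an unadjusted p under 0.05, and 1 member and 19.9% of genes called by DESeq2. The differences were 2.61 ± 0.84 (adjusted p = 0.0616) for Tlr7, -1.84 ± 0.76 (adjusted p = 0.135) for Tlr5 and 1.60 ± 0.82 (adjusted p = 0.235) for Tlr1, and these 3 were called with the block, as were 22.8% of genes (2.73, adjusted p = 0.000723, -2.01, adjusted p = 0.0100 and 1.96, adjusted p = 0.0191). Without astrocyte LPS replicate 3, Tlr7 (3.00, adjusted p = 0.0458) and Tlr6 (1.70, adjusted p = 0.0307, against 1.11 ± 0.60, adjusted p = 0.260 with it) were called, and Tlr7 also without LPS replicate 4 (adjusted p = 0.0488). Cell type, the day of stimulation after isolation, the separate counting of each cell type and any batch cannot be told apart.

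**Figure D4:**
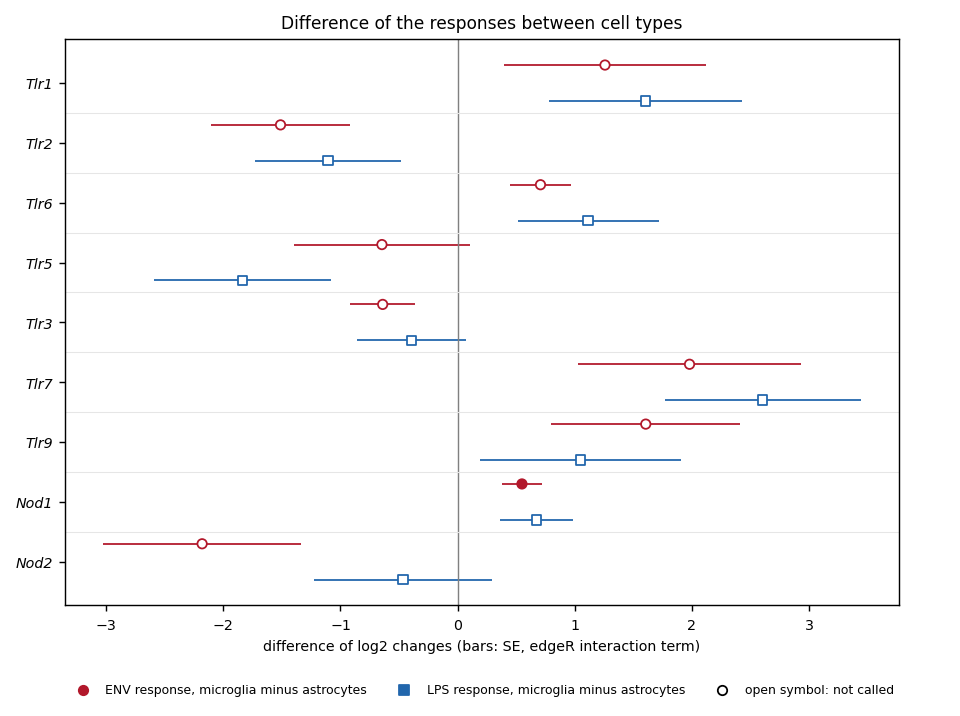
Difference of the log2 response of each receptor transcript, microglia minus astrocytes, with the standard error of the edgeR interaction term, for ENV (red circles) and LPS (blue squares), open where not called. Nod1 with ENV, at 0.55, was the called difference, and Tlr7, Tlr1 and Tlr6 are positive and Tlr2 and Tlr5 negative for both stimuli.

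Partners of the receptors were read from 8 lists of pathway genes, each given by its counts and its median log2 change, beside the medians of all genes given above. Tlr8, an endosomal relative of Tlr7, rose in microglia with ENV to 456 ± 37.1 CPM, against 164 ± 26.2 CPM with buffer (SD, n = 3 each; 1.68 ± 0.16, adjusted p = 0.000596). Its LPS call (1.25 ± 0.36, adjusted p = 0.0456) was lost without LPS replicate 1 or 2 or H2O replicate 1, 2 or 3 (adjusted p = 0.0553 to 0.146). Tlr4, the LPS receptor gene, was called lower in microglia with LPS (-1.13 ± 0.32, adjusted p = 0.0424), which was lost without LPS replicate 1 or 2 or H2O replicate 1, 2 or 3 (adjusted p = 0.0733 to 0.132), and not with ENV (-0.57 ± 0.21, adjusted p = 0.0861), where it was called without buffer replicate 3 (-0.79, adjusted p = 0.000861) and on plain library totals (-0.77, adjusted p = 0.0406), or in astrocytes (-0.30 ± 0.47, adjusted p = 0.703 and -0.79 ± 0.50, adjusted p = 0.428). Among the Toll-like receptor genes outside the 9, 2 rose and 0 fell of 3 (median 1.68) in microglia with ENV and 2 rose and 1 fell of 3 (median 1.25) with LPS, and 0 rose and 1 fell of 3 (median -0.30) in astrocytes with ENV and 0 rose and 1 fell of 3 (median -0.86) with LPS.

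Cd14, a co-receptor of TLR4 and TLR2, rose in microglia with ENV (1.49 ± 0.18, adjusted p = 0.00159) and LPS (2.23 ± 0.32, adjusted p = 0.00601), and was at 2.08 ± 0.72 (adjusted p = 0.0807) and 1.42 ± 0.52 (adjusted p = 0.165) in astrocytes with ENV and LPS. Both astrocyte changes were called with the replicate block (1.76, adjusted p = 0.0130 and 1.24, adjusted p = 0.0133) and by DESeq2, and the ENV change without ENV replicate 2 (adjusted p = 0.0116). Tril, a co-receptor of TLR3 and TLR4, fell in astrocytes to 24.5 ± 6.60 CPM with ENV, against 104 ± 15.3 CPM with buffer (SD, n = 4 each; -2.07 ± 0.21, adjusted p = 0.000791), and fell with LPS (-1.86 ± 0.25, adjusted p = 0.00865). Its call in microglia with ENV (-1.37 ± 0.43, adjusted p = 0.0486) was lost without ENV replicate 2 or buffer replicate 1, 2 or 3 (adjusted p = 0.0664 to 0.132). Of co-receptors and surface partners, 2 rose and 1 fell of 6 (median 0.11) in microglia with ENV and 2 rose and 0 fell of 6 (median 0.48; 2 and 1 with the block) with LPS, and 0 rose and 1 fell of 7 (median 0.11; 2 and 2 with the block) in astrocytes with ENV and 0 rose and 1 fell of 6 (median 0.052; 2 and 2 with the block) with LPS.

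Unc93b1, the chaperone gene of the endosomal receptors, was at 0.017 ± 0.20 (adjusted p = 0.957) and -0.076 ± 0.29 (adjusted p = 0.861) in microglia with ENV and LPS. It rose in astrocytes with ENV to 72.6 ± 12.1 CPM, against 45.8 ± 8.13 CPM with buffer (SD, n = 4 each; 0.68 ± 0.14, adjusted p = 0.0147), a call that was lost without buffer replicate 3 (adjusted p = 0.0505), and was at 0.39 ± 0.21 (adjusted p = 0.340) with LPS. Hsp90b1, a chaperone of Toll-like receptors, rose in microglia with ENV (1.06 ± 0.11, adjusted p = 0.000945). Slc15a2, a peptide transporter gene, fell in microglia with ENV to 0.576 ± 0.331 CPM, against 13.5 ± 4.60 CPM with buffer (SD, n = 3 each; -4.34 ± 0.46, adjusted p = 0.000871), and fell with LPS (-7.16 ± 0.84, adjusted p = 0.00367). Its ENV call in astrocytes (-1.86 ± 0.42, adjusted p = 0.0197) was lost without ENV replicate 3 (adjusted p = 0.0528). Slc15a3, a lysosomal transporter of NOD ligands, rose in microglia with LPS (1.13 ± 0.12, adjusted p = 0.00247). Of genes of folding, trafficking and ligand transport, 2 rose and 5 fell of 13 (median 0.017) in microglia with ENV and 2 rose and 4 fell of 13 (median -0.044; 1 and 4 with the block) with LPS, and 1 rose and 1 fell of 13 (median 0.016; 3 and 3 with the block) in astrocytes with ENV and 0 rose and 0 fell of 13 (median 0.018; 0 and 3 with the block) with LPS.

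Myd88, the shared adaptor gene, rose in microglia with ENV (0.74 ± 0.14, adjusted p = 0.00848) and was at 0.41 ± 0.25 (adjusted p = 0.252) with LPS, and at 0.33 ± 0.18 (adjusted p = 0.238) and 0.26 ± 0.37 (adjusted p = 0.762) in astrocytes. Pik3ap1, an adaptor to PI3 kinase, rose in microglia with ENV (1.65 ± 0.22, adjusted p = 0.00206) and LPS (1.80 ± 0.29, adjusted p = 0.00779). The call of Sarm1, a TIR-domain adaptor gene, in astrocytes with ENV (-0.61 ± 0.17, adjusted p = 0.0393) was lost without ENV replicate 1, 2 or 4 or buffer replicate 1, 3 or 4 (adjusted p = 0.0762 to 0.0995). Of TIR adaptors, 4 rose and 0 fell of 5 (median 0.74; 4 and 1 with the block) in microglia with ENV and 2 rose and 0 fell of 4 (median 1.09) with LPS, and 0 rose and 1 fell of 5 (median 0.33; 1 and 1 with the block) in astrocytes with ENV and 0 rose and 0 fell of 5 (median 0.26; 2 and 1 with the block) with LPS. Ticam1, the TRIF gene, was among the 6 adaptors listed, of which 5 were found by symbol, and it has no result here because its symbol was not found.

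Irf7, a transcription factor gene downstream of TLR7 and TLR9, rose in all 4 comparisons. It averaged 1725 ± 647 CPM with ENV and 26.2 ± 18.3 CPM with buffer in microglia (SD, n = 3 each; 6.24 ± 0.70, adjusted p = 0.00116), and changed by 5.94 ± 0.45 (adjusted p = 0.00111) with LPS. In astrocytes it changed by 4.58 ± 0.26 (adjusted p = 0.000214) and 4.38 ± 0.42 (adjusted p = 0.00346). Tab1, a partner of the kinase TAK1, fell in microglia with ENV (-0.58 ± 0.11, adjusted p = 0.00964), and its LPS call (-0.60 ± 0.13, adjusted p = 0.0195) was lost without LPS replicate 1 or 2 or H2O replicate 2 or 3 (adjusted p = 0.0531 to 0.0771). The call of Peli2, a ubiquitin ligase gene, in astrocytes with ENV (-1.45 ± 0.38, adjusted p = 0.0343) was lost without ENV replicate 1, 2 or 3 or buffer replicate 3 or 4 (adjusted p = 0.0595 to 0.0748). Of kinases, ligases and transcription factors, 5 rose and 2 fell of 19 (median 0.33) in microglia with ENV and 6 rose and 2 fell of 19 (median 0.21) with LPS, and 6 rose and 1 fell of 18 (median 0.24) in astrocytes with ENV and 3 rose and 0 fell of 18 (median 0.28; 5 and 1 with the block) with LPS.

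Ripk2, the kinase gene downstream of both NOD receptors, rose in astrocytes with ENV to 97.7 ± 42.9 CPM, against 23.8 ± 5.28 CPM with buffer (SD, n = 4 each; 2.06 ± 0.35, adjusted p = 0.00659), and was at 1.85 ± 0.45 (adjusted p = 0.0551) with LPS. That LPS change was called with the replicate block (1.65, adjusted p = 0.0251), by DESeq2 (adjusted p = 0.000843), in the joint fit of 4 groups (adjusted p = 0.0137) and without LPS replicate 2 (adjusted p = 0.0306). In microglia it was at 0.14 ± 0.13 (adjusted p = 0.449) with ENV, or -0.070 on plain library totals, and 0.43 ± 0.16 (adjusted p = 0.0860) with LPS, called in the joint fit (adjusted p = 0.0437). Birc3, a ubiquitin ligase gene of NOD signalling, rose in microglia with ENV (3.84 ± 0.27, adjusted p = 0.000264) and LPS (4.58 ± 0.55, adjusted p = 0.00398) and in astrocytes with ENV (3.88 ± 0.64, adjusted p = 0.00572). Its LPS call in astrocytes (3.67 ± 0.74, adjusted p = 0.0300) was lost without LPS replicate 3 or 4 or H2O replicate 1, 2 or 3 (adjusted p = 0.0629 to 0.108). Nagk, a kinase of peptidoglycan sugars, was called lower in microglia with ENV (-0.61 ± 0.15, adjusted p = 0.0215), which was lost without ENV replicate 1 or 3 or buffer replicate 1 (adjusted p = 0.0698 to 0.0816), and with LPS (-0.55 ± 0.13, adjusted p = 0.0219), which was lost without LPS replicate 1 or 2 or H2O replicate 1 or 2 (adjusted p = 0.0521 to 0.0913). Of NOD signalling genes, 3 rose and 1 fell of 10 (median 0.019) in microglia with ENV and 3 rose and 1 fell of 10 (median 0.28) with LPS, and 5 rose and 0 fell of 9 (median 1.04) in astrocytes with ENV and 2 rose and 0 fell of 9 (median 0.84; 5 and 0 with the block) with LPS.

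Irak3, a brake on MYD88 signalling, rose with ENV in microglia (1.80 ± 0.13, adjusted p = 0.000290) and in astrocytes (2.00 ± 0.40, adjusted p = 0.0122), and was at 1.24 ± 0.44 (adjusted p = 0.0776) and 1.56 ± 0.67 (adjusted p = 0.229) with LPS. The LPS change in microglia was called with the replicate block (1.38, adjusted p = 0.0266), by DESeq2 (adjusted p = 0.0182), in the joint fit (adjusted p = 0.0225) and without H2O replicate 3 (0.88, adjusted p = 0.0486). Tnfaip3, which encodes the ubiquitin-editing enzyme A20, rose in astrocytes with ENV to 329.6 ± 188 CPM, against 35.4 ± 6.73 CPM with buffer (SD, n = 4 each; 3.24 ± 0.41, adjusted p = 0.00201). Its LPS call there (3.04 ± 0.46, adjusted p = 0.0116) was lost without H2O replicate 3 (adjusted p = 0.0535). In microglia its ENV call (0.63 ± 0.19, adjusted p = 0.0453) was lost without ENV replicate 1, 2 or 3 or buffer replicate 1 or 2 (adjusted p = 0.0545 to 0.141), and LPS gave 0.84 ± 0.33 (adjusted p = 0.101), called by DESeq2 (adjusted p = 0.0496). In microglia with LPS, the call of Zc3h12a, an RNase gene, (2.08 ± 0.39, adjusted p = 0.0126) was lost without H2O replicate 1 (adjusted p = 0.0617), and Il1rl1, the IL-33 receptor gene, fell (-1.55 ± 0.21, adjusted p = 0.00500). Of negative regulators, 7 rose and 0 fell of 11 (median 0.63) in microglia with ENV and 3 rose and 1 fell of 11 (median 0.82) with LPS, and 5 rose and 0 fell of 11 (median 0.42; 5 and 1 with the block) in astrocytes with ENV and 3 rose and 0 fell of 11 (median 0.53) with LPS.

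Nlrc5, an NLR gene that activates MHC class I genes, rose in microglia with ENV (3.14 ± 0.35, adjusted p = 0.00118) and LPS (4.38 ± 0.31, adjusted p = 0.00105) and in astrocytes with ENV (2.39 ± 0.22, adjusted p = 0.000684). Its LPS call in astrocytes (2.12 ± 0.43, adjusted p = 0.0302) was lost without LPS replicate 3 or 4 or H2O replicate 1, 2, 3 or 4 (adjusted p = 0.0514 to 0.0888). Of other NLR genes, 4 rose and 1 fell of 5 (median 1.27) in microglia with ENV and 4 rose and 1 fell of 5 (median 1.11) with LPS, and 2 rose and 0 fell of 7 (median 0.79) in astrocytes with ENV and 2 rose and 0 fell of 7 (median 0.42) with LPS.

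The genes whose levels ran most like each receptor are given by Pearson r of log2 CPM, as a description over libraries that share their groups, cultures and scaling. Over the 12 microglial libraries they were Bcl3 (0.996) and Septin6 (0.990) for Tlr1, Pim1 (0.962) and Efnb2 (0.958) for Tlr2 and Slamf1 (0.989) and Dusp2 (0.989) for Tlr6. They were Zfp62 (0.985) and Heph (0.975) for Tlr5, Mcm10 (0.963) and Etv5 (0.952) for Tlr3, Pml (0.998) and Mov10 (0.995) for Tlr7 and Vps35l (0.980) and Prpf6 (0.960) for Tlr9. For the NOD receptors they were Insig2 (0.977) and Srgap2 (0.971) for Nod1 and Pim1 (0.989) and Slc2a6 (0.988) for Nod2, so that Pim1, a kinase gene, was nearest to both Tlr2 and Nod2. Over the 16 astrocyte libraries they were Fyb1 (0.986) and Itgb2 (0.983) for Tlr1, Itgal (0.984) and Tnf (0.973) for Tlr2 and Ackr1 (0.908) and Lims2 (0.890) for Tlr6. Those of the other Toll-like receptors were Immp1l (0.960) and Klf13 (0.943) for Tlr5, Aim2 (0.948) and Slu7 (0.937) for Tlr3, Tnfaip8l2 (0.973) and Lcp1 (0.971) for Tlr7 and Csf1r (0.961) and Cndp1 (0.959) for Tlr9. For Nod1 they were Pitpnm1 (0.929) and Nub1 (0.920), and for Nod2 Cd83 (0.981) and Il1b (0.974). Csf1r, nearest to Tlr9 in astrocyte libraries, is itself 1 of the 12 microglial markers.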

How the data were processed

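The deposited files hold raw counts per gene symbol for each library. Per the labels' protocols, libraries were made with mRNA capture from total RNA, and the submitters' processing notes name HISAT2, StringTie 1.3.3b and mRatBN7.2, with no roles, strand setting or annotation release stated. Reads shared by paralogs or overlapping genes could not be separated. Every library had its own labelled column.

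Each stimulus was compared with its own vehicle within a cell type by edgeR 4.0.16 (limma 3.58.1, R 4.3.3): quasi-likelihood F test, 2-sided, TMM scaling, filterByExpr, Benjamini-Hochberg adjustment over all genes tested. Differences of responses were interaction terms, and tables of both cell types were joined by symbol, although they were made separately. Alternatives were DESeq2 1.42.0 and its size factors, no filter, a joint fit of 4 groups, a replicate block, libraries left out, and, chosen after seeing the data, plain library totals and a block over both sets. Libraries of the same replicate number, taken from the sample titles, deviated together in every pair (r of 0.260 to 0.637 over genes), so the numbers were taken to pair the libraries. The main fits did not use this pairing, and only the replicate blocks did. In astrocytes with LPS the pairing was less clear: replicate 2 correlated as much with another number (0.531) as with its own (0.529), and replicate 1 at up to 0.397.

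The members and lists were chosen with earlier results of these data known. Named genes were all members, a fixed panel and, per list and comparison, the largest called rise and fall averaging 10 CPM or more in its higher group, and the 2 genes most like each member among those of at least 1 CPM. In simulated data, known changes were put into a random sample of the better-expressed genes, a small part of those simulated. Of the genes changed 4-fold, 97% and 82% were recovered in microglia with ENV (12844 genes simulated) and LPS (12229). In astrocytes 95% and 86% were (14941 and 14710 genes simulated). Of those changed 2-fold, 57%, 29%, 61% and 44% were recovered in the same order. For ENV minus LPS in microglia it was 7% of the genes changed 2-fold and 64% of those changed 4-fold (13270 genes simulated). In astrocytes it was 39% and 89% for that difference (15496 genes simulated). For the response in microglia minus that in astrocytes it was 27% and 75% with ENV (13378 genes simulated) and 16% and 68% with LPS (13284). Tlr9 in astrocytes, Tlr5 in astrocytes with ENV and buffer, and Nod2 in astrocytes with LPS and H2O lay below the level from which changed genes were drawn. The simulation gave libraries of the same replicate number no shared deviation. Promoter sequences and gene neighbours came from RefSeq tables of GRCr8, a later build than that of the files.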

Additional observations from a re-analysis of the deposited data

Results flagged for a closer look

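The response of Nod1 to ENV was 0.55 larger in microglia than in astrocytes on the log2 scale, and the edgeR test of that difference itself passed its threshold (adjusted p = 0.0476). The call was lost without any 1 of 11 of the 14 libraries, on plain library totals (adjusted p = 0.169) and with no filter (adjusted p = 0.0562). Nod1 was higher in every microglial ENV library than in any buffer library, while in astrocytes buffer replicate 4 lay at the level of the lowest ENV library. In the 36 sets of 4 astrocyte libraries, 1 per receptor and group, no library was flagged as lying far from the other 3. The rule used the gap to the next library over the range, which finds only a very distant library among 4. It cannot flag libraries that lie apart in pairs, and microglial groups, of 3 libraries, were not checked.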

How the results depend on the processing

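The number of receptors called in microglia with ENV was 8, where 30.9% of all genes were called. It was 5 in a joint fit of 4 groups (23.1%) and 6 to 7 with 1 library left out (18.9% to 40.7%). In microglia with LPS it was 6 (29.8% of all genes), and 3 to 6 with 1 library left out (10.6% to 32.1%). In astrocytes with ENV it was 5 (17.9% of all genes) and 3 to 5 with 1 library left out (9.82% to 18.9%). It was 0 with replicates 1 and 2 only (2.48%) and 2 with replicates 3 and 4 only (6.23%). In astrocytes with LPS it was 2 (5.34% of all genes) and 2 to 3 with 1 library left out (1.58% to 4.56%). It was 6 with the replicate block (17.7%) and 4 with replicates 3 and 4 only (5.96%). For the ENV response between cell types it was 1 (14.9% of all genes), 0 on plain library totals (18.5%), 2 by DESeq2 (21.2%) and 0 with no filter (12.1%). It was 7 with the replicate block (24.8%) and 0 to 2 with 1 library left out (10.4% to 16.8%). For the LPS response between cell types it was 0 (12.5%), 1 by DESeq2 (19.9%) and 3 with the block (22.8%). With 1 library left out it was 0 to 2 there (8.26% to 13.5%). Over all genes the replicate block called 4348 genes in place of 2670 in astrocytes with ENV, 2611 in place of 785 with LPS, 3314 in place of 1998 for the ENV difference and 3029 in place of 1656 for the LPS difference. DESeq2 called 2061 genes in astrocytes with LPS, 2714 for the LPS difference and 64 for ENV minus LPS in microglia. Apart from the calls given beside their results, the block changed no call of a receptor. All 9 vehicle differences kept their calls. In astrocytes with ENV, the calls of Birc3, Irak3, Nlrc5, Ripk2 and Tnfaip3 were lost with replicates 1 and 2 only, and those of Unc93b1, Slc15a2, Sarm1 and Peli2 with either pair of replicates alone. In microglia, the joint fit ended the ENV calls of Tlr2, Tlr3, Tlr5, Tril and Tnfaip3, and no filter those of Tlr3 and Tril with ENV and of Tlr4 and Tlr8 with LPS. DESeq2 size factors ended the microglial ENV call of Tril, plain library totals those of Tnfaip3 with ENV and Tlr8 with LPS, and the joint fit the astrocyte ENV calls of Nod1 and Sarm1.

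Changes that turned direction were not called. With 1 library left out, the ranges in microglia with LPS were -0.028 to 0.62 for Tlr3 (-0.063 on plain library totals), -0.59 to 0.22 for Tlr9 and -0.33 to 0.15 for Unc93b1. With ENV in microglia, Unc93b1 ranged over -0.18 to 0.11 (-0.19 on plain totals) and Ripk2 was at -0.070 on plain totals. In astrocytes with ENV, Tlr6 ranged over -0.070 to 0.21 (-0.21 with replicates 1 and 2 only) and Tlr7 over -0.079 to 0.72. In astrocytes with LPS, Tlr6 ranged over -0.50 to 0.32 (-0.077 with the block and -0.58 with replicates 1 and 2 only), Tlr7 over -0.42 to 0.42 (0.076 with replicates 3 and 4 only) and Myd88 over -0.0013 to 0.46 (-0.26 with replicates 1 and 2 only). For ENV minus LPS in microglia, Nod1 ranged over -0.26 to 0.27 (-0.035 with no filter), Tlr1 over -0.80 to 0.24, Tlr2 over -0.40 to 0.016 and Tlr3 over -0.25 to 0.54. In astrocytes, Tlr6 ranged over -0.26 to 0.57 (0.012 on plain totals and 0.13 with the block, or 0.064 with the block over both sets), Tlr1 over -0.13 to 0.54, Tlr7 over -0.048 to 0.78, Tlr9 over -0.090 to 0.88 and Tlr2 over -0.044 to 0.60. The LPS difference of Nod2 between cell types ranged over -0.88 to 0.048. The cause of these shifts was not tested. Libraries held few counts of Nod2 in vehicle astrocytes, of Tlr9 in astrocytes and of Tlr5 in LPS-treated microglia and in treated astrocytes (29 to 113 counts). The effect of depth was not tested.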
